A study of Homo sapiens with 8 samples.

Results

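Genes of the centrosome and the cilium were taken by symbol: CEP, IFT or BBS followed by a number, TUBG or TUBGCP, and the 8 symbols PCNT, PCM1, CDK5RAP2, NEDD1, STIL, SASS6, OFD1 and CCP110. Of 94 human gene symbols of this kind in a RefSeq table, 80 of them protein coding, 80 had an entry in the authors' deposited table of fold changes and 77 of these were paired with an array probe. A probe was kept where at least 4 of the 8 arrays gave it a detection p-value under 0.01, and 67 genes had such a probe, among 10057 named genes kept by the same filter. Members were therefore chosen by their symbol and by their signal over background, and that they were detected is no result. CEP170P1, CEP19 and TUBG1 had an entry but no paired probe. BBS5, CEP126, CEP68, CEP76, CEP97, IFT122, IFT140, IFT22, IFT70B and TUBGCP3 were paired but not kept, 6 of them with no detected array at all. Just inside the filter stood IFT80, detected on 4 shControl and 2 shZNF395 arrays, IFT70A on 3 and 3, and CEP85L on 3 and 2. Just outside it, IFT140 and IFT70B were each detected on 1 shZNF395 array, and CEP126 and TUBGCP3 on 1 shControl array. Of the 67 measured members, 63 were detected on all 8 arrays.

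The arrays were Illumina BeadChips hybridised with total RNA of MDA-LM2-shTARBP2 cells, in which MDA-LM2, selected from human MDA-MB-231 breast cancer cells for metastasis to the lung, carries a hairpin against the RNA-binding protein gene TARBP2. That hairpin is shared by both groups. The 4 shControl samples received a lentiviral control hairpin, the 4 shZNF395 samples a lentiviral hairpin against the zinc finger transcription factor gene ZNF395, and RNA was taken at 48 h. The design text of the series speaks of mock-transfected cells where the sample labels give shControl. Because the labels name no separate cultures, all p-values rest on the spread among 4 samples a group, and that spread may be technical.

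Median raw signal lay between 53.2 and 57.1 per array, and 16476 to 17406 probes of an array were detected. Across the kept probes, the lowest correlation within a group was r = 0.9931 and the highest between groups was r = 0.9745. The arrays numbered 3 stood apart: limma's array quality weights were 0.602 for shControl 3 and 0.417 for shZNF395 3, against 0.96 to 1.55 for the other 6 arrays, so counts are also given without both. ZNF395 itself was 9.89, 9.81, 9.80 and 10.05 log2 intensity on shControl arrays 1 to 4 and 9.06, 8.99, 9.22 and 9.06 on shZNF395 arrays 1 to 4, and fell to 57.3% of the control level (limma adjusted p = 1.01e-05). The 8 genes listed as expressed in the MDA-MB-231 lineage were detected on all 8 arrays. ESR1, PGR, GATA3, FOXA1, CDH1 and KRT5, which are low in that lineage, were detected on no array.

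A centrosome is built around a pair of centrioles, cylinders of microtubules that are copied before each cell division, and the pericentriolar material around them holds the gamma-tubulin ring complexes that nucleate microtubules. In a resting cell the older centriole can dock at the membrane through its appendages and template a primary cilium, the antenna through which many vertebrate cells receive Hedgehog and other signals. Cilia are built and kept up by intraflagellar transport (IFT) trains, and the BBSome, a coat of BBS proteins that rides on these trains, carries membrane proteins in and out of them. Many centrosome genes are used mainly in cells that divide, and some of them only from S phase to mitosis.

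Centriole, gamma-tubulin and appendage genes were mostly lower or uncalled in shZNF395, while 4 of 7 BBS genes were higher. At a limma adjusted p under 0.05 (Benjamini-Hochberg over all 17184 kept probes), 10 of the 67 members rose, 29 fell and 28 did not pass. Over all 10057 named genes, 57.9% were called, 29.8% higher and 28.2% lower, so the members' share higher, 14.9%, lay below that background and their share lower, 43.3%, above it. Over all kept probes, named or not, 55.4% were called, 25.3% higher and 30% lower. The median log2 change of the members was -0.142, within a range of -0.666 to 1.188, against -0.006 over all named genes, and it was -0.084 when cyclic loess replaced quantile normalization. For the 63 members detected on all 8 arrays the counts were 10 higher and 27 lower. Without both arrays numbered 3, the 67 members gave 10 higher and 26 lower with a median of -0.120. Of the 67, 17 were read through a transcript entry paired with 2 probes, a less certain pairing, among them CEP152, SASS6, NEDD1, CEP83, CEP131, CEP41, BBS2 and IFT88. With entries of a single probe only, 51 members were measured, of which 7 rose and 22 fell. These counts describe the members and are no test of them as a list. In bulk RNA, fewer cells of a kind and less RNA per cell cannot be told apart.

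CEP genes numbered 33, of which 3 rose and 17 fell, the median log2 change being -0.209. TUBG and TUBGCP genes numbered 5, with 2 lower and none higher, and the 8 single symbols gave 4 lower and none higher. By contrast, the 7 BBS genes gave 4 higher and 1 lower with a median of 0.517, and the 14 IFT genes gave 3 higher and 5 lower with a median of 0.015. Together the 21 IFT and BBS genes held 7 of the 10 members that rose and 6 of the 29 that fell. Their shares, 33.3% higher and 28.6% lower, lay near those of all named genes, 29.8% and 28.2%. Most changes were small: 5 of the 67 members were higher and 7 lower by at least 0.5 on the log2 scale. Of the 10057 named genes, 1349 (13.4%) and 928 (9.23%) were. At this cut the members' share lower was close to that of all named genes, and their share higher was below it. The 4 arrays of a group did not overlap those of the other group for 31 of 67 members, a smaller share than the 52.7% of all named genes (5299 of 10057). The difference between the families was not tested.

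**Figure D1:**
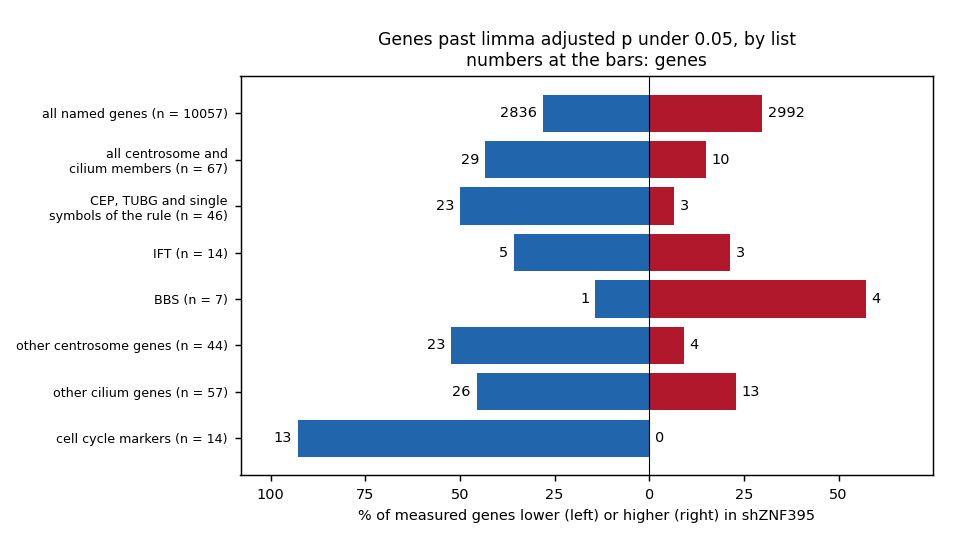
Share of measured genes past the limma threshold in each list, in percent of the list, with genes lower in shZNF395 drawn to the left and genes higher drawn to the right; the numbers at the bars are genes. The 46 CEP, TUBG and single-symbol genes and the 44 other centrosome genes extend mostly to the left, the 7 BBS genes mostly to the right, and the 10057 named genes about equally to both sides.

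**Figure D2:**
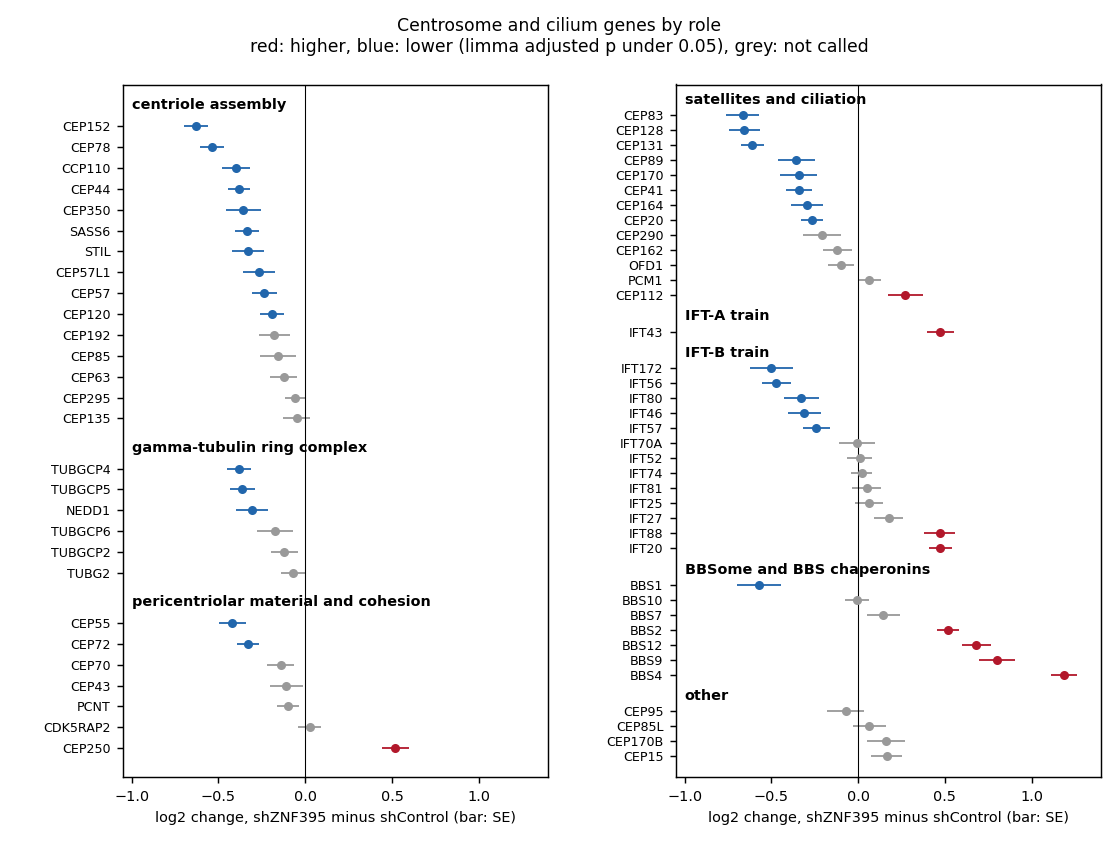
Log2 change (shZNF395 minus shControl) of 66 members as a point with its standard error, grouped by role, in red where higher, in blue where lower and in grey where not called. No centriole assembly or gamma-tubulin point is red, and the points farthest to the right are BBS4 at 1.19 and BBS9 at 0.80.

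The promoters of 5 members that the results turn on are printed here so that the sequences in front of genes that fell and of the gene that rose most can be set side by side. CEP152, CEP55, CCP110 and CEP41 fell and BBS4 rose. They were chosen after their values were seen. Each line gives the 250 bases before the annotated start on the gene's strand, 5′ to 3′, from RefSeq's windows on GRCh38.p14. The windows are chr15:48811070-48811319 (minus strand) for CEP152, chr10:93496362-93496611 (plus) for CEP55, chr16:19523692-19523941 (plus) for CCP110, chr7:130441017-130441266 (minus) for CEP41 and chr15:72685957-72686206 (plus) for BBS4. Capitals mark matches, on either strand, to 4 motifs: TTTGAA, the core of the cell cycle homology region found in promoters of genes expressed late in the cell cycle; CCAAT, the box bound by NF-Y; GTTGCC, an arm of the X-box bound by the RFX factors that drive cilium genes; and GCCGGCG, an element bound by ZNF395.
CEP152: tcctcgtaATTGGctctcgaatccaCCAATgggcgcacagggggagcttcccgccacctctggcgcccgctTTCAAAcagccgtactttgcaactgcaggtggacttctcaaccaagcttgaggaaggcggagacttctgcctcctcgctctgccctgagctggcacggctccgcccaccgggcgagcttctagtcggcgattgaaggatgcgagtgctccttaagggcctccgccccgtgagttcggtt
CEP55: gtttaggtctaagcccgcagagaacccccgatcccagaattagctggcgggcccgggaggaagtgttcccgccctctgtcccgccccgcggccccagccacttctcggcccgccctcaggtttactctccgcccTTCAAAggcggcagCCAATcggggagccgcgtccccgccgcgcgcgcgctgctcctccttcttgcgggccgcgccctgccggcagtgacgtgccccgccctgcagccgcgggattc
CCP110: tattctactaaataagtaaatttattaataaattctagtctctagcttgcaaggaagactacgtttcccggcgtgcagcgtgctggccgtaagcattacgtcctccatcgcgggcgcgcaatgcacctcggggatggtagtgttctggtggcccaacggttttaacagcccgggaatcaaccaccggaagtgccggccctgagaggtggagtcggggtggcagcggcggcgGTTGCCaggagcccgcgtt
CEP41: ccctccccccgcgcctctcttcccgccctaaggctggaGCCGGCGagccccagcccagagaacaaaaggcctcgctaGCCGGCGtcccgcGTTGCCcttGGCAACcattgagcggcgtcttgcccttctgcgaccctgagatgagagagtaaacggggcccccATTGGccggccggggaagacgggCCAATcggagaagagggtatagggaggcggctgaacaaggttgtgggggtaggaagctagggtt
BBS4: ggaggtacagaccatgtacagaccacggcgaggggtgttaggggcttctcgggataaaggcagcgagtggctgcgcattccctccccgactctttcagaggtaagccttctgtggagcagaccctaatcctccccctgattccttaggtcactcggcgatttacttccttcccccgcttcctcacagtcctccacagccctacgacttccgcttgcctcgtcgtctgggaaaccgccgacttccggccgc
CEP152 and CEP55 both hold TTTGAA, read as TTCAAA on the gene's strand, together with CCAAT. CCP110 holds a single GTTGCC near the gene's start. CEP41 holds both arms of an X-box, GTTGCC and GGCAAC, 3 bases apart, together with GCCGGCG at 2 places and CCAAT on both strands. Such a pair of arms, at most 3 bases apart, stood in 36 of 27305 promoters (0.132%), and CEP41 was the 1 member among them. None of the 4 motifs stood in the BBS4 window.

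Promoter windows were listed for 59 of the 67 members, 12 of them with over 1 window, of which the window listed first was read. GTTGCC or its complement stood in 16 of the 59 (27.1%), against 10.1% of 27305 promoters and 10.6% of the 8173 promoters of named detected genes. CCAAT stood in 26 (44.1%, against 33% and 36%), TTTGAA in 10 (16.9%, against 13.6% and 8.27%) and GCCGGCG in 8 (13.6%, against 8.8% and 15%). By call, TTTGAA stood in none of 7 promoters of members that rose, 6 of 27 of members that fell and 4 of 25 of members not called. GTTGCC stood in 1, 7 and 8 of these, CCAAT in 2, 14 and 10, and GCCGGCG in 1, 4 and 3. Of 81 matches in the members' promoters, 2 pairs of different motifs overlapped. A match is a run of letters and not a site shown to be bound, and these shares have no test.

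Centriole assembly genes were the most one-sided of the larger groups, with 10 of 15 measured members lower, none higher and a median log2 change of -0.266. Their share lower was 66.7%, whereas 28.2% of all named genes were lower and 29.8% higher. Without both arrays numbered 3 the count was again 10 lower and none higher. CEP152, the scaffold at the centriole wall that recruits the kinase PLK4 to start duplication, was 8.38, 8.44, 8.28 and 8.28 log2 intensity on shControl arrays 1 to 4 and 7.65, 7.83, 7.72 and 7.67 on shZNF395 arrays 1 to 4. Every shZNF395 value lay below every shControl value. CEP152 fell to 64.7% of control, a log2 change of -0.63 (SE 0.067, adjusted p = 2.08e-05), and its other kept probe gave a log2 change of -0.93 (adjusted p = 9.76e-06). CEP78, a protein of the mature centriole wall whose loss causes cone-rod dystrophy with hearing loss, was 9.58, 9.74, 9.77 and 9.59 in shControl and 9.10, 9.14, 9.07 and 9.22 in shZNF395. It too fell with no overlap, by 0.54 (SE 0.069, adjusted p = 7.49e-05), and by 0.64 on its other probe.

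SASS6, the building block of the cartwheel on which a new centriole forms, was 7.80, 7.95, 7.98 and 7.92 in shControl and 7.62, 7.52, 7.49 and 7.68 in shZNF395, all below the controls. On this brighter probe SASS6 fell by 0.34 (SE 0.069, adjusted p = 0.00178), while its other kept probe gave -0.06 (SE 0.17, adjusted p = 0.787), so its probes disagree in the fit over all 8 arrays. The other probe was 6.30, 6.21, 5.94 and 6.21 in shControl and 5.94, 5.93, 6.69 and 5.87 in shZNF395, with shZNF395 3 the highest. STIL, the partner that brings SASS6 to the parent centriole, was 10.39, 10.49, 10.58 and 10.56 in shControl and 10.21, 10.25, 9.91 and 10.34 in shZNF395. STIL fell by 0.33 (SE 0.093, adjusted p = 0.011), the groups did not overlap, and shZNF395 3 was the lowest array. CCP110, which caps centrioles and holds back cilium growth, was 9.46, 9.52, 9.73 and 9.36 in shControl and 9.14, 9.15, 9.08 and 9.11 in shZNF395. Its shZNF395 arrays lay close to each other, and it fell by 0.40 (SE 0.08, adjusted p = 0.00159) to 75.9% of control.

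CEP44, which takes part in turning a new centriole into a centrosome, fell by 0.38 (SE 0.064, adjusted p = 0.00047), from 9.46 ± 0.056 to 9.08 ± 0.076 (SD, n = 4 each), with no overlap. CEP350, a centriole protein that anchors microtubules, fell by 0.36 (SE 0.1, adjusted p = 0.0109), and its groups overlapped because shControl 3, at 8.09, lay below shZNF395 4, at 8.11. CEP57, CEP57L1 and CEP120 complete the 10, with log2 changes of -0.24, -0.27 and -0.19. Among the 5 centriole genes that were not called, CEP63, the partner of CEP152, gave -0.12 on its brighter probe and -0.24 on the other (adjusted p = 0.203 and 0.0621). CEP192, CEP85, CEP295 and CEP135 gave -0.18, -0.16, -0.06 and -0.05, each with overlapping groups.

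Gamma-tubulin ring complex genes gave 3 lower of 6 measured, none higher and a median of -0.24. Over all named genes 28.2% were lower and 29.8% higher, and with only 6 genes the difference from that share is uncertain and was not tested. TUBGCP4, a subunit of the ring, was 8.16, 8.20, 8.07 and 8.18 in shControl and 7.75, 7.80, 7.89 and 7.65 in shZNF395. The groups stood apart, and TUBGCP4 fell by 0.38 (SE 0.068, adjusted p = 0.000748). TUBGCP5, another ring subunit, was 7.68, 7.82, 7.70 and 7.60 in shControl and 7.37, 7.43, 7.21 and 7.34 in shZNF395, and fell by 0.36 (SE 0.072, adjusted p = 0.00145), again without overlap. NEDD1, the adaptor that brings the ring to centrosomes and spindles, fell by 0.31 (SE 0.092, adjusted p = 0.0154) and by 0.33 on its other probe. Its groups overlapped through the arrays numbered 3, where shControl 3 was 7.10 and shZNF395 3 was 7.15, whereas the other shControl arrays lay at 7.36 to 7.49 and the other shZNF395 arrays at 6.97 to 7.05. TUBGCP6, TUBGCP2 and the gamma-tubulin gene TUBG2 were not called, with log2 changes of -0.17, -0.12 and -0.07.

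The large scaffolds of the pericentriolar material were not called, and this group held a rise and 2 falls among 7 measured genes. These are 14.3% and 28.6%, against 29.8% higher and 28.2% lower of all named genes. PCNT, the pericentrin scaffold, was 10.19, 10.23, 10.31 and 10.10 in shControl and 10.12, 10.12, 10.05 and 10.14 in shZNF395, with overlapping groups and a log2 change of -0.10 (adjusted p = 0.211). CDK5RAP2, which activates gamma-tubulin rings, was 10.42, 10.42, 10.43 and 10.32 in shControl and 10.28, 10.49, 10.46 and 10.46 in shZNF395. Its brightest probe gave 0.03 (adjusted p = 0.77), and its other kept probes gave -0.33 (adjusted p = 0.00557) and -0.11 (adjusted p = 0.409), so a reading of this gene depends on the probe.

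CEP55, which sits at the centrosome in interphase and at the midbody in the last step of cell division, was 12.19, 12.00, 12.07 and 12.21 in shControl and 11.86, 11.70, 11.63 and 11.60 in shZNF395. All shZNF395 arrays were lower, and CEP55 fell by 0.42 (SE 0.078, adjusted p = 0.000905) to 74.7% of control. CEP72, which helps to recruit pericentriolar proteins, fell by 0.33 (SE 0.062, adjusted p = 0.000974), from 7.05 ± 0.046 to 6.72 ± 0.071 (SD, n = 4 each). CEP250, the C-Nap1 linker that ties the centrioles of a pair together, went the other way, from 6.77, 6.71, 6.53 and 6.53 in shControl to 7.14, 7.05, 7.20 and 7.25 in shZNF395. The groups did not overlap, and CEP250 rose 1.43-fold (log2 change 0.52, SE 0.077, adjusted p = 0.000213). It was the only CEP gene higher by at least 0.5. CEP70 and CEP43 were not called, at -0.14 and -0.11.

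**Figure D3:**
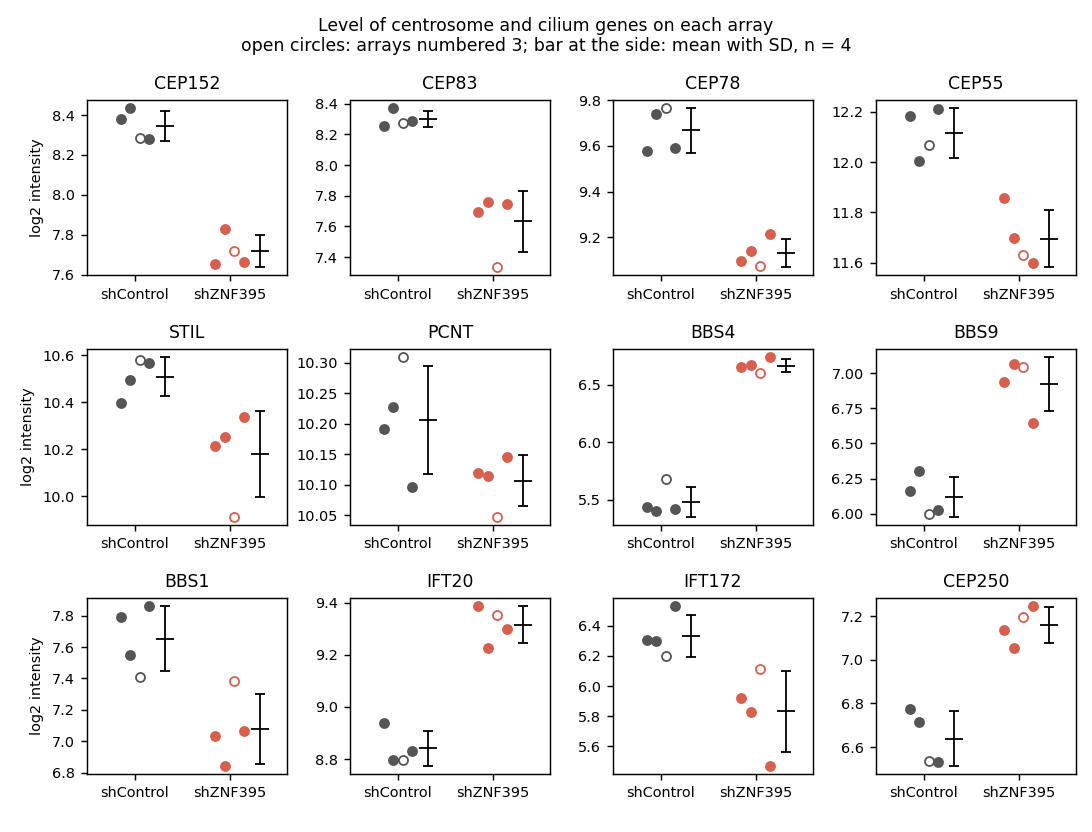
Log2 intensity of 12 members on each array, shControl in grey and shZNF395 in red, with the arrays numbered 3 as open circles and the mean with its SD (n = 4) at the side; each panel has its own axis, which does not start at 0. The groups are apart in every panel except PCNT, whose shControl 4 array lies among the shZNF395 arrays.

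Appendage, satellite and other ciliation genes gave 8 lower and 2 higher of 14 measured, with a median of -0.28, and 6 lower and 2 higher without both arrays numbered 3. Over all 8 arrays these shares were 57.1% and 14.3%, against 28.2% lower and 29.8% higher of all named genes. CEP83, the innermost distal appendage protein, needed to dock the centriole at the membrane, was 8.26, 8.37, 8.28 and 8.29 in shControl and 7.69, 7.76, 7.33 and 7.75 in shZNF395. The groups were far apart, with shZNF395 3 lowest. CEP83 fell by 0.67 (SE 0.094, adjusted p = 0.000152), to 63% of control, and by 0.60 on its other probe. With genes read by their brightest probe this was the largest fall on the log2 scale among the 67 members; with the mean of all kept probes it was -0.63, and CEP152 was lower at -0.78. CEP128, a subdistal appendage protein, was 7.58, 7.20, 7.53 and 7.53 in shControl and 6.84, 6.78, 6.72 and 6.88 in shZNF395. Even the low shControl 2 array lay above all shZNF395 arrays, and CEP128 fell by 0.66 (SE 0.089, adjusted p = 0.000113). CEP131, a centriolar satellite protein, was 8.81, 8.88, 8.94 and 8.76 in shControl and 8.29, 8.29, 8.12 and 8.24 in shZNF395. It fell by 0.61 (SE 0.068, adjusted p = 2.82e-05) without overlap.

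CEP41, a Joubert syndrome protein needed for tubulin glutamylation in cilia, was 8.53, 8.47, 8.56 and 8.53 in shControl and 8.07, 8.16, 8.38 and 8.11 in shZNF395. The groups did not overlap although shZNF395 3 came close, and CEP41 fell by 0.34 (SE 0.075, adjusted p = 0.00285) and by 0.45 on its other probe (adjusted p = 0.0013). CEP89, another distal appendage protein, fell by 0.36 (SE 0.1, adjusted p = 0.0139) with overlapping groups. CEP170, a subdistal appendage protein read by a dim probe, fell by 0.34 (SE 0.11, adjusted p = 0.0187), with 3 of its shZNF395 arrays detected. Its other kept probe gave -0.44 but was detected on only 3 shControl arrays and 1 shZNF395 array. That probe thus passed the filter mainly through shControl and adds little. CEP164 and CEP20 fell by 0.30 and 0.26, and CEP112 rose by 0.27 on the log2 scale.

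PCM1, the scaffold of the satellites, was 9.76, 9.84, 9.86 and 9.80 in shControl and 9.95, 9.97, 9.75 and 9.84 in shZNF395. The groups overlapped and PCM1 was not called on either probe, at 0.06 and -0.03 (adjusted p = 0.446 and 0.708). OFD1, which controls the length of centrioles at their distal end, was 6.70, 6.68, 6.78 and 6.66 in shControl and 6.69, 6.59, 6.71 and 6.44 in shZNF395, with a log2 change of -0.10 (adjusted p = 0.281). CEP290, of the ciliary transition zone, and CEP162 were not called, at -0.21 and -0.12. CEP15 (0.17 on its brighter probe and -0.20 on the other), CEP170B (0.16), CEP85L (0.06) and CEP95 (-0.07) were not placed in a role, and none of these 4 was called.

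BBS genes were the family in which most measured members rose, 4 of 7 (57.1%, against 29.8% of all named genes). The 4 rises were the largest among the 67 members together with CEP250. BBS4, a BBSome subunit that links the complex to satellites and transport, was 5.43, 5.40, 5.68 and 5.42 in shControl and 6.66, 6.67, 6.60 and 6.74 in shZNF395. Every shZNF395 array stood above every shControl array, of which shControl 3 was the highest. BBS4 rose 2.28-fold (log2 change 1.19, SE 0.075, adjusted p = 4.66e-07). Its shControl values were dim, though detected on all 4 arrays, and the authors' deposited change for BBS4 was 0.48 on their own log-like scale. The size of the rise is therefore less certain than its direction. BBS9, a scaffold subunit of the BBSome, was 6.16, 6.30, 6.00 and 6.02 in shControl and 6.94, 7.07, 7.04 and 6.65 in shZNF395. All 4 shZNF395 arrays were higher, and BBS9 rose 1.74-fold (log2 change 0.80, SE 0.1, adjusted p = 8.35e-05). Its other probe was detected on 3 shZNF395 arrays and no shControl array and was not kept.

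BBS12, a chaperonin-like protein that helps the BBSome assemble, was 6.00, 5.77, 6.13 and 5.85 in shControl and 6.60, 6.61, 6.55 and 6.71 in shZNF395. It rose 1.6-fold (log2 change 0.68, SE 0.084, adjusted p = 5.82e-05) without overlap. BBS2, a core BBSome subunit, was 8.10, 8.09, 8.05 and 8.24 in shControl and 8.67, 8.67, 8.63 and 8.58 in shZNF395. It rose 1.43-fold (log2 change 0.52, SE 0.063, adjusted p = 5.52e-05), and its other kept probe gave 0.59 (adjusted p = 0.000434). BBS1, the subunit through which the GTPase ARL6 recruits the BBSome to membranes, moved the other way, from 7.79, 7.55, 7.41 and 7.86 in shControl to 7.04, 6.84, 7.38 and 7.06 in shZNF395. The arrays numbered 3 were the closest of the groups, 7.41 against 7.38, and BBS1 fell by 0.57 (SE 0.13, adjusted p = 0.00279). BBS7, a subunit, gave 0.14 (adjusted p = 0.216), and BBS10, the other chaperonin-like gene measured under a BBS symbol, had means of 7.32 in both groups. Related genes without a BBS symbol were counted with the other cilium genes and are named after their values were seen. The chaperonin-like gene MKKS rose by 0.31 (adjusted p = 0.00306) and gave 0.12 on its other kept probe (adjusted p = 0.165). TTC8 and ARL6 were not called, at -0.10 and 0.03, though the other kept probe of TTC8 gave -0.21 (adjusted p = 0.0356).

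IFT genes were called in both directions, as were all named genes: 21.4% of the 14 were higher and 35.7% lower, against 29.8% and 28.2% of all named genes. The IFT-A train, which carries cargo back from the ciliary tip, had 1 measured member by symbol, IFT43, since IFT122 and IFT140 were not kept. IFT43 was 7.79, 7.96, 7.88 and 7.83 in shControl and 8.33, 8.32, 8.52 and 8.18 in shZNF395. No arrays overlapped, and IFT43 rose 1.39-fold (log2 change 0.47, SE 0.079, adjusted p = 0.000478). Of 13 IFT-B genes, whose train moves toward the tip, 2 were higher and 5 lower with a median of 0.009, and 2 higher and 3 lower without both arrays numbered 3. IFT20, the IFT-B subunit that also sits at the Golgi, was 8.94, 8.80, 8.80 and 8.83 in shControl and 9.39, 9.22, 9.35 and 9.30 in shZNF395. It rose 1.39-fold (log2 change 0.47, SE 0.064, adjusted p = 0.000112) with clear separation of the arrays. IFT88, the IFT-B core subunit altered in the mouse model of polycystic kidney disease, was 6.23, 6.18, 6.15 and 6.00 in shControl and 6.43, 6.60, 6.81 and 6.58 in shZNF395. It rose 1.38-fold (log2 change 0.47, SE 0.087, adjusted p = 0.000935), and its other probe gave 0.53 (adjusted p = 0.000177).

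The IFT-B genes that fell included both core and peripheral subunits. IFT172, the largest peripheral subunit, was 6.30, 6.30, 6.20 and 6.53 in shControl and 5.92, 5.83, 6.11 and 5.47 in shZNF395. The shZNF395 arrays were spread widely but stayed below the controls, and IFT172 fell by 0.50 (SE 0.13, adjusted p = 0.00587). IFT56, a core subunit, was 7.33, 7.44, 7.60 and 7.39 in shControl and 6.94, 7.09, 6.80 and 7.04 in shZNF395. It fell by 0.47 (SE 0.084, adjusted p = 0.000706), again with every array lower. IFT80, a peripheral subunit at the edge of detection, fell by 0.33 (SE 0.1, adjusted p = 0.0178) with overlapping groups, and IFT46 and IFT57 fell by 0.31 and 0.24. The core subunits IFT52, IFT74 and IFT81 were not called, at 0.01, 0.02 and 0.05, and other probes of IFT52 and IFT81 gave -0.13 and -0.23, likewise not called. IFT27, IFT25 and IFT70A gave 0.17, 0.06 and -0.01.

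Of the 39 calls, 32 held when any single array was left out and 7 did not. IFT80 was not called without shControl 1 (log2 change -0.28, adjusted p = 0.0547) or without shZNF395 4 (-0.27, adjusted p = 0.0539), and CEP170 without shControl 1 (-0.27, adjusted p = 0.0552) or without shZNF395 1 (-0.26, adjusted p = 0.0542). CEP164 lost its call without shZNF395 1 (-0.26, adjusted p = 0.054). For CEP57L1 this was so without shControl 3, shControl 4, shZNF395 1 or shZNF395 2 (adjusted p = 0.0594, 0.071, 0.0816 and 0.0736), and for IFT57 without shControl 3, shControl 4, shZNF395 1 or shZNF395 3 (adjusted p = 0.0531, 0.0696, 0.0541 and 0.0531). CEP112 lost its call without shControl 1, 2 or 3 or shZNF395 1 or 2 (adjusted p = 0.112, 0.0708, 0.0707, 0.101 and 0.0616), and CEP120 without shControl 1, 2 or 4 or shZNF395 1 or 2 (adjusted p = 0.0987, 0.0969, 0.0589, 0.0966 and 0.0979). Without both arrays numbered 3, CEP89, CEP164, IFT46 and IFT57 were not called (adjusted p = 0.0579, 0.0515, 0.0753 and 0.0954). Conversely, CEP192 was called without shZNF395 4 (log2 change -0.24, adjusted p = 0.0328), IFT27 without shControl 4 or shZNF395 1 (adjusted p = 0.0429 and 0.0476), and CEP70 without both arrays numbered 3 (adjusted p = 0.0405). Most of these genes fall outside the rule for named genes and are given because of these values.

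**Figure D4:**
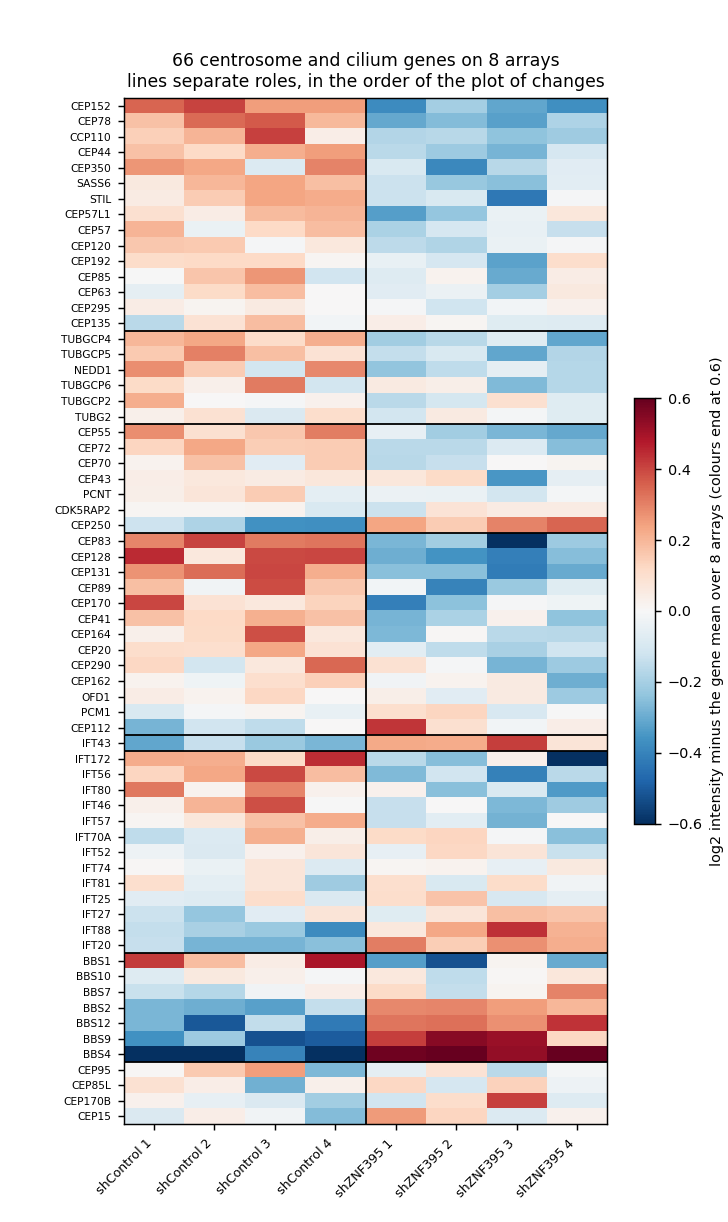
Log2 intensity of 66 members on each of the 8 arrays, minus the gene's mean over the 8 arrays, from blue (below) to red (above), with colours ending at 0.6; thin lines separate the roles and a vertical line the groups. Blue fills most shZNF395 cells of the centriole, gamma-tubulin and appendage genes and red those of BBS2, BBS12, BBS9 and BBS4, while the rows of PCNT, CDK5RAP2 and PCM1 stay pale.

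Genes of the same structures that the symbols do not take in were counted from separate lists. Among 44 measured other centrosome genes, 4 rose (9.09%) and 23 fell (52.3%), against 29.8% and 28.2% of all named genes. The median log2 change of the 44 was -0.237. PLK4, the kinase that starts centriole duplication on CEP152, was 10.55, 10.59, 10.47 and 10.42 in shControl and 9.65, 9.77, 9.67 and 9.78 in shZNF395. PLK4 fell by 0.79 (SE 0.065, adjusted p = 3.3e-06) to 57.9% of control, without overlap. CCNF, the cyclin F gene whose product marks CCP110 for degradation, fell by 0.86 (SE 0.069, adjusted p = 2.47e-06), so that CCNF and CCP110 were lower in the same samples. HAUS5, an augmin subunit, ALMS1, the Alström syndrome gene, and TEDC2, which works with delta- and epsilon-tubulin, fell by 0.71, 0.69 and 0.62.

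Among 57 measured other cilium genes, 13 were higher (22.8%) and 26 lower (45.6%), with a median of -0.111. Over all named genes 29.8% were higher and 28.2% lower. DYNC2LI1, a light intermediate chain of the dynein that drives IFT-A trains, rose 1.96-fold (log2 change 0.97, SE 0.085, adjusted p = 4.92e-06). Of the other genes of that dynein in the list, DYNC2I2 fell by 0.39. DYNLT2B fell by 0.19 (adjusted p = 0.038) and by 0.47 on its other kept probe (adjusted p = 0.000325). DYNC2H1 and DYNC2I1 were not called, at 0.14 and 0.17. DYNC2H1 was called without shControl 3 (log2 change 0.18, adjusted p = 0.0455) and without both arrays numbered 3 (0.21, adjusted p = 0.0192), and DYNC2I1 without shControl 2 (0.23, adjusted p = 0.0228). IFT-A genes whose symbols do not start with IFT differed in direction, as WDR19 rose by 0.56 and WDR35 fell by 0.49 on the log2 scale. Apart from DYNC2LI1, these genes of the dynein and of IFT-A were added after their values were seen. SCLT1, which joins CEP83 in the distal appendages, fell by 0.77 (SE 0.065, adjusted p = 3.81e-06). The kinase gene CILK1, which acts on IFT at the ciliary tip, and the transition zone genes TCTN1 and MKS1 fell by 0.74, 0.71 and 0.67. DYNC2LI1, SCLT1, CILK1, TCTN1 and MKS1 had groups that did not overlap. The same held for 37 of the 57 genes and for 52.7% of all named genes.

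Of 14 measured cell cycle markers, 13 were lower (92.9%, against 28.2% of all named genes) and none higher, with a median of -0.522. All 14 were detected on all 8 arrays. The summed linear intensity of the 14 was 35300 to 37400 on shControl arrays and 25500 to 27100 on shZNF395 arrays. MKI67, the Ki-67 proliferation marker, was 7.84, 7.75, 7.92 and 7.90 in shControl and 6.52, 6.67, 6.66 and 6.46 in shZNF395, and fell by 1.27 (SE 0.071, adjusted p = 1.98e-07). CCNA2, the cyclin of S phase and G2, and FOXM1, the transcription factor of late cell cycle genes, fell by 0.86 and 0.83. Their part in the members' changes was not tested. MKI67 was lower by more on the log2 scale than any of the 67 members.

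Markers of cells with many motile cilia were mostly undetected. Of 20 such markers, 17 had a probe and 14 of these were detected on no array, among them FOXJ1, DNAI1, DNAH5, RSPH1 and HYDIN. Only CCNO and MYB, which are not limited to such cells, were measured, and CCNO was higher by 0.29 and MYB lower by 0.72 on the log2 scale. The summed intensity of the 17 was 633 to 734 in shControl and 722 to 842 in shZNF395. Of 12 leukocyte markers, 11 had a probe, and 7 of these, among them PTPRC, TYROBP, ITGAM, CD3E, LCP2 and FCER1G, were detected on no array. Their sum was 792 to 920 in shControl and 1080 to 1330 in shZNF395. Of the 4 measured, CD14 and CSF1R were higher, with log2 changes of 1.45 and 0.38, and 1 was not called. CD79A was also called higher, but it was detected on 4 shZNF395 and no shControl arrays. Among 7 fibroblast markers, COL3A1, DCN and PDGFRA were detected on no array, LUM was called higher and was detected on 4 shZNF395 and no shControl arrays, and COL1A1 was higher by 0.29 on the log2 scale. The sum of the 7 was 297 to 347 in shControl and 529 to 554 in shZNF395. Of 6 markers of the packaging cells in which lentivirus is made, NEFM, LIN28B and SALL4 were detected on no array. NEFH was detected on 4 shControl and 3 shZNF395 arrays and was not called, and NEFL was detected on 1 shControl array. CDH2 was called higher with detection on 4 shZNF395 and no shControl arrays. CD79A, LUM and CDH2 thus passed the filter only through shZNF395, where they were higher, and their calls add little. The sum of the 6 was 66.7 to 88.8 in shControl and 78.9 to 96.8 in shZNF395. The part of these genes in the members' changes was not tested.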

How the data were processed

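Per the file headers, the authors' deposited table without normalization gives the intensity of 47323 probes on each of the 8 arrays, each with a detection p-value, and the deposited series matrix holds normalized intensities for the same probes. Of tools, only lumi stands in the submitters' processing notes. The deposited fold-change table, on a log-like scale close to log2 at high signal, holds 39747 transcript entries with no value per array. The genome build and annotation used by the authors are not given in the sources used here.

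Neither kind of table pairs probes with transcripts, and the pairs were instead found from the values: group differences of transformed series matrix intensities were matched to the deposited changes within 1e-09. This gave 1 probe for 33123 entries (83.3%, against 0.0302% after a shift of the values) and, by elimination, a mean of 2 probes for 5409 more. Of 660 decoy entries, 41 (6.21%) were also accepted in that step, so genes read through such entries are less certain; they are 17 of the 67 members. RefSeq names (GRCh38.p14) gave 22408 entries a symbol, and 26.5% of the kept probes had none.

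The raw intensities were background-corrected by normexp in limma 3.58.1 (R 4.3.3), with the negative controls taken from the detection p-values and 16 added, then quantile-normalized and put on the log2 scale. Each gene was represented by the kept probe that was brightest over the 8 arrays. The difference shZNF395 minus shControl was fitted with lmFit and tested, two-sided, with eBayes. The fit was tested on simulated data. The number of arrays limits the precision. No probe's level was set against another probe's.

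Members and gene lists were chosen with earlier results of these data known. The rule for named genes takes ZNF395, the 8 single symbols, up to 5 called members of each role by size of change, members with over 1 kept probe, members undetected in a whole group (there were none), the 4 brightest uncalled members, up to 5 called genes of the other centrosome and cilium lists and up to 3 of each marker list. Other members are named, outside that rule, to account for the 67. Some items are withheld and not reported here by name, though the counts include them. Same-numbered samples did not deviate together (correlations of -0.107, 0.0055, -0.422 and -0.0865), so the numbers were not used as pairs. The columns name no slide, so no slide effect was fitted. Python 3.11.15 with numpy 2.4.6, scipy 1.17.1, pandas 2.3.3 and matplotlib 3.10.9 was used for the other steps.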

Additional observations from a re-analysis of the deposited data

Results flagged for a closer look

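By Dixon's test at the 95% level, 12 of 186 sets of 4 values, each a gene in a group, held a value far from the rest. Chance flags about 1 in 20 such sets, and 6 of the 12 fell on the arrays numbered 3. On shControl 3, BBS4 was 5.68 (others 5.40 to 5.43), CEP20 was 10.81 (10.67 to 10.69), CEP85L was 4.96 (5.28 to 5.34) and IFT25 was 9.42 (9.23 to 9.25). On shZNF395 3, CEP83 was 7.33 (others 7.69 to 7.76) and FOXM1 was 10.27 (9.77 to 9.84). On shControl 4, CDK5RAP2 was 10.32 (10.42 to 10.43), CEP192 was 9.10 (9.20 to 9.21) and CILK1 was 9.83 (9.68 to 9.71). CDK5RAP2 was 10.28 on shZNF395 1 (10.46 to 10.49), CEP128 was 7.20 on shControl 2 (7.53 to 7.58) and TUBGCP2 was 9.54 on shControl 1 (9.31 to 9.35). With that array left out, the calls of BBS4, CEP20, CEP83 and CEP128 held.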

How the results depend on the processing

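Every called member kept its direction in all 25 alternatives where it could be measured, and 12 of the 39 calls were past the threshold in all of them. With each array left out in turn, 9 to 11 members were higher and 24 to 29 lower, with a median log2 change of -0.163 to -0.112. The same ranges were 7 to 8 higher and 5 to 6 lower for IFT and BBS genes, 3 to 4 and 21 to 25 for the other centrosome genes, 11 to 15 and 23 to 26 for the other cilium genes, and 2733 to 3043 and 2548 to 2874 for all named genes. A stricter rule lowered the counts by its construction. With a change of at least 0.5 asked for as well, 5 members were higher and 7 lower, with 4 and 2 for IFT and BBS genes, 1 and 11 for the other centrosome genes, 2 and 9 for the other cilium genes and 1349 and 928 for all named genes. At an adjusted p under 0.01, 17 members were lower, 3 of them IFT and BBS genes. With entries of a single probe only, 8 of 40 other cilium genes were higher, and 7 higher and 22 lower of 51 members. The median of the other cilium genes was -0.014 and -0.013 with a looser or no detection filter, which adds dim genes. With the replicate number as a block, which the labels do not say pairs the samples, 9 members were higher and 27 lower. The median change of all kept probes was -0.046, and -0.024 with median scaling and 0.003 with cyclic loess. Under cyclic loess the members' median was -0.084 and that of the other cilium genes -0.045, and under median scaling -0.119 and -0.053. Without background correction the median of IFT and BBS genes was 0.025, against 0.049. Over these alternatives no median of the members or of the other lists changed sign, and the cause of the shifts was not tested. Dim probes limit IFT80, IFT70A, CEP85L and CEP170, which were not detected on every array.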
